A study of Mus musculus with 8 samples.

Results

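The comparison described here is the difference between the effect of deleting PARP2 and the effect of deleting PARP1 in cultured myeloid cells, (PARP2CKO minus PARP2 WT) minus (PARP1CKO minus PARP1 WT). The labels call them myeloid cells, and the study names such cultures immature myeloid cells (IMCs) from flow cytometry. It used all 8 libraries of the series, 2 in each of 4 groups, in 1 model of 13197 genes that passed a filter on low counts, out of 24062 gene symbols. A positive difference means a higher log2 fold change in the PARP2 deletion than in the PARP1 deletion. All mice were 2-month-old C57BL/6 animals with floxed alleles, either PARP1 flox/flox or PARP2 flox/flox. PARP1CKO and PARP2CKO mice also carried lysozyme-Cre (LyzM-Cre), which is active in the myeloid lineage, and the WT mice of each line were floxed littermates without Cre. Bone marrow cells of every group were cultured in M-CSF, a macrophage growth factor, at 40 ng per mL for 3 days, and total RNA was sequenced. No gate or sort of the cultured cells is given in the labels, and a WT animal without floxed alleles or with Cre alone is not among the groups. The deletion and the Cre therefore cannot be told apart within a line. Nothing in the labels says whether the 2 libraries of a group came from separate animals, so p-values measure the spread between these libraries, which may be technical.

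PARP1 and PARP2 are nuclear enzymes that attach poly(ADP-ribose) chains to proteins, using NAD+ as the donor. Both are activated by DNA breaks and act in DNA repair, and both bind chromatin and influence transcription, PARP1 as a cofactor of inflammatory genes in macrophages among other roles. They share a catalytic domain and differ in their DNA-binding parts, and inhibitors in clinical use block both. The study deleted each in the myeloid and osteoclast lineage, citing the part that osteoclasts play in bone metastasis.

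The libraries held between 37852450 and 61845125 counts on genes. Macrophage and myeloid markers were abundant in every library, with Itgam at 885 to 999 CPM, Csf1r at 1122 to 1258 CPM, Cd68 at 1579.8 to 1887 CPM and Emr1, the F4/80 antigen, at 503 to 608 CPM. Ly6c2 lay at 54.2 to 71.4 CPM, and the T cell gene Cd3e at 0 to 0.115 CPM. Levels below are in CPM, counts scaled to a common library size with TMM factors (for these markers the library total was used), and adjusted p-values come from the quasi-likelihood test of edgeR, adjusted by the Benjamini-Hochberg method over all 13197 genes.

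Each targeted gene fell in its own deletion, Parp1 with a log2 fold change of -1.75 in PARP1CKO (adjusted p = 0.0134) and Parp2 with -0.91 in PARP2CKO (adjusted p = 0.000139). Parp1 (chr1:180568924-180601254, mm10, as all positions here) was at 202 and 211 CPM for PARP1 WT, 63.2 and 59.1 CPM for PARP1CKO, 251 and 155 CPM for PARP2 WT and 263 and 264 CPM for PARP2CKO. Both PARP1CKO libraries lay below all others. PARP2 WT replicate 2 lay well under its partner, and the PARP2CKO libraries were above both PARP2 WT libraries. The log2 difference of Parp1 was 2.13 (standard error 0.245, adjusted p = 0.0552), just outside the threshold of 0.05. Its adjusted p ranged from 3.81e-14 to 0.334 over 18 alternatives and was under 0.05 in 7 of them. Parp2 (chr14:50807841-50821301) was at 39.1 and 40.8 CPM for PARP1 WT, 38.3 and 37 CPM for PARP1CKO, 48.2 and 48.3 CPM for PARP2 WT and 25.7 and 25.6 CPM for PARP2CKO. The PARP2CKO libraries lay far below the rest, and the PARP1CKO libraries slightly below PARP1 WT with a log2 fold change of -0.086. The difference of -0.82 (standard error 0.0639) passed the test with an adjusted p of 0.00634. Counts on the rest of a transcript remain when only the floxed part of a gene is lost, so the remaining level does not measure how complete the deletion was.

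Lyz2, the gene into which the Cre of this driver is inserted, was lower in both deletions. It was at 5712 and 6387 CPM for PARP1 WT, 3495 and 4334 CPM for PARP1CKO, 9725 and 10804 CPM for PARP2 WT and 6742 and 5747 CPM for PARP2CKO. The CKO libraries lay below the WT libraries of their line, and the log2 fold changes of -0.63 and -0.72 differed by -0.089 (standard error 0.163, adjusted p = 0.915), so no difference between the 2 deletion effects was detectable in it, although its level was higher in PARP2 WT than in PARP1 WT. Mir6904, a microRNA gene inside the span of Parp1 (chr1:180587201-180587267), followed Parp1 with 6.02 and 8.38 CPM for PARP1 WT, 2.62 and 2.06 CPM for PARP1CKO, 8.7 and 5.71 CPM for PARP2 WT and 9.61 and 10.1 CPM for PARP2CKO. A gene that lies within a longer one can take reads of the host transcript, so its count is uncertain and is not a separate result.

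**Figure D1:**
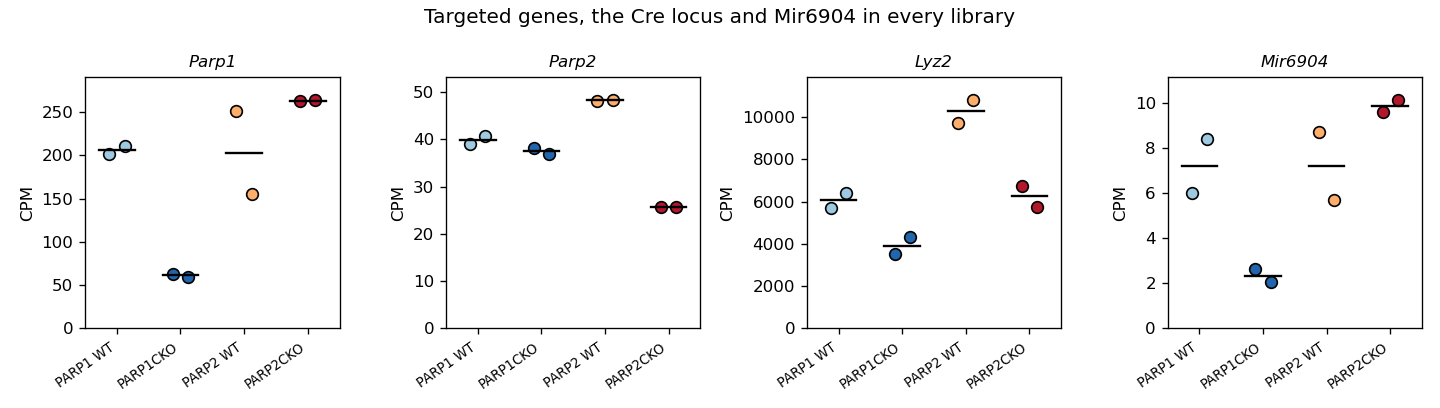
CPM (y axis, linear) of Parp1, Parp2, Lyz2 and Mir6904 in the 4 groups (x axis); points are the 2 libraries of a group and bars their mean. Parp1 and Mir6904 are lowest in PARP1CKO, Parp2 is lowest in PARP2CKO, and Lyz2 is lower in each CKO group than in the WT group of its line.

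Few single genes differed between the deletions beyond the spread of 2 libraries a group. The difference passed the test for 2 genes (0.0152% of those tested), Parp2, itself a targeted gene, and Nlrp1c-ps, both with a negative difference. In the separate comparisons 14 genes passed in the PARP1 deletion (0.106%) and 7 in the PARP2 deletion (0.0530%). At an unadjusted p under 0.05, 1015 genes (7.69%) differed, 475 with a positive (3.60%) and 540 with a negative difference (4.09%). These serve below only as a background for counts within gene lists. The median log2 fold change over all genes was 0.0059 in the PARP1 deletion and -0.0014 in the PARP2 deletion.

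Nlrp1c-ps (chr11:71242430-71285232), a pseudogene of the NLRP1 inflammasome sensor family, was at 8.17 and 8.53 CPM for PARP1 WT, 9.99 and 8.72 CPM for PARP1CKO, 3.51 and 6.15 CPM for PARP2 WT and 0 and 0 CPM for PARP2CKO. Both PARP2CKO libraries had 0 counts, while PARP1CKO lay slightly above PARP1 WT. With 3 counts per library as the floor the level of PARP2CKO was at least 77.8-fold lower than that of PARP2 WT, and the fitted difference of -11.08 depends on the prior count (adjusted p = 0.0107). PARP2 WT was already below the PARP1 line. Its neighbour Nlrp1a (chr11:71092236-71144704) moved the same way without passing the test, with 9.55 and 17.9 CPM for PARP2 WT, 2.08 and 1.74 CPM for PARP2CKO beside 22.5 and 19.3 CPM for PARP1 WT, 22.4 and 20.0 CPM for PARP1CKO (difference -2.85, standard error 0.374, adjusted p = 0.115). The pair are related in sequence and could share reads.

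To find genes that went in opposite directions, the libraries of each line were compared without a model. In 438 genes (3.32%) both PARP1CKO libraries lay above both PARP1 WT libraries and both PARP2CKO libraries below both PARP2 WT libraries. In 435 genes (3.30%) the order was the reverse. Separation in the same direction was seen in 567 genes higher (4.3%) and 540 genes lower (4.09%) in both deletions. Within a single line the libraries did not overlap in 41.2% of all genes for PARP1 and 37.2% for PARP2, so these counts are a description and separation in opposite directions is not by itself a result about a gene. Among the genes that separated in opposite directions, 187 of the lower-then-higher kind and 207 of the higher-then-lower kind had a mean of at least 1 CPM and an unadjusted p under 0.05 in the difference. Apart from Nlrp1c-ps, none of these passed the adjusted threshold in the quasi-likelihood test. With edgeR's likelihood-ratio test 72 genes and with DESeq2 45 genes passed in the difference, and these included Parp1, Chd3, Ccl3, Cd36, Ms4a7 and Gm5150.

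**Figure D2:**
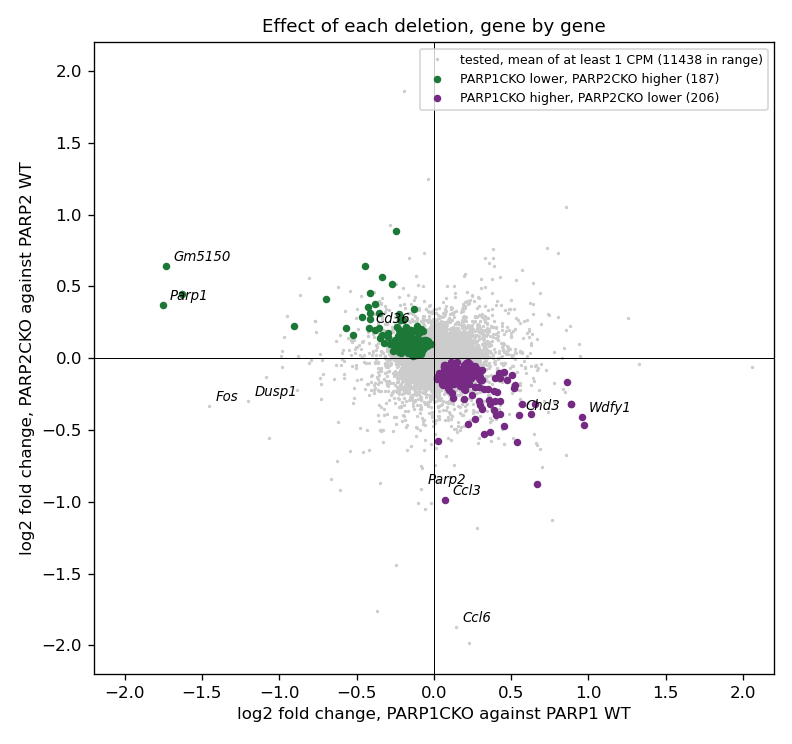
Log2 fold change of PARP1CKO against PARP1 WT (x axis) and of PARP2CKO against PARP2 WT (y axis) for 11438 genes with a mean of at least 1 CPM; 9 genes beyond 2.2 on either axis are not drawn. Green points are the 187 genes lower in PARP1CKO and higher in PARP2CKO, purple points 206 genes higher in PARP1CKO and lower in PARP2CKO, all with libraries that do not overlap and an unadjusted p under 0.05; 364 of them lie within 0.5 of 0 on both axes.

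The genes described first were lower in PARP1CKO and higher in PARP2CKO, and were chosen by their values. Cd36, a scavenger receptor that takes up fatty acids and oxidized lipoproteins, was at 1603 and 1612 CPM for PARP1 WT, 1271 and 1133 CPM for PARP1CKO, 2184 and 2002 CPM for PARP2 WT and 2309 and 2539.6 CPM for PARP2CKO. All 4 comparisons between a CKO and a WT library went the same way in each line, downward in the PARP1 line and upward in the PARP2 line, and the log2 difference was 0.63 (standard error 0.102, adjusted p = 0.122). Cd72, an inhibitory C-type lectin receptor, was at 19.6 and 19.7 CPM for PARP1 WT, 15 and 15.2 CPM for PARP1CKO, 21.2 and 20.7 CPM for PARP2 WT and 23 and 25 CPM for PARP2CKO. The PARP1CKO libraries lay well below their WT libraries, while the PARP2CKO libraries lay above theirs, with a difference of 0.58 (standard error 0.0858, adjusted p = 0.119). Ms4a7, a tetraspan protein of macrophages, was at 82.3 and 78.5 CPM for PARP1 WT, 67.9 and 69.6 CPM for PARP1CKO, 62.1 and 66.8 CPM for PARP2 WT and 73.7 and 74 CPM for PARP2CKO. In this gene the groups crossed, since PARP1 WT was the highest group and PARP2 WT the lowest, and the difference was 0.42 (standard error 0.0657, adjusted p = 0.122). Atp6v0d2, a subunit of the proton pump that acidifies lysosomes and the resorption space of osteoclasts, was at 67.2 and 64.8 CPM for PARP1 WT, 57 and 55.9 CPM for PARP1CKO, 106 and 127 CPM for PARP2 WT and 146 and 142 CPM for PARP2CKO, with a difference of 0.53 (standard error 0.104, adjusted p = 0.239). The 4 libraries of the PARP2 line were all above those of the PARP1 line in Cd36, Cd72 and Atp6v0d2. The CKO groups lay further apart than the WT groups in these genes, and the cause was not tested. These 4 genes were singled out after their values were seen.

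Of the 12 largest differences in this direction, Parp1 and Mir6904 are described above. Gm5150 was at 0.698 and 1.15 CPM for PARP1 WT, 0.337 and 0.221 CPM for PARP1CKO, 2.49 and 2.46 CPM for PARP2 WT and 4.31 and 3.4 CPM for PARP2CKO, a log2 fold change of -1.73 in PARP1CKO and 0.64 in PARP2CKO (difference 2.37, standard error 0.403, adjusted p = 0.154). Every PARP2-line library exceeded every PARP1-line library, and the PARP1 line held under 1.2 CPM throughout. Slamf8, a SLAM family receptor of activated myeloid cells, was at 6.25 and 5.5 CPM for PARP1 WT, 4.46 and 4.36 CPM for PARP1CKO, and at 8.01 and 7.42 CPM for PARP2 WT, 12.8 and 8.3 CPM for PARP2CKO. Gngt2, a G protein gamma subunit, was at 6.64 and 7.4 CPM for PARP1 WT, 5.04 and 5.46 CPM for PARP1CKO, and at 12.5 and 10.4 CPM for PARP2 WT, 14.3 and 15.1 CPM for PARP2CKO. The difference was 0.87 (standard error 0.262, adjusted p = 0.571) for Slamf8 and 0.78 (standard error 0.156, adjusted p = 0.24) for Gngt2. Pcdh7, a protocadherin, had log2 fold changes of -0.57 and 0.21, and P2ry10, a G protein-coupled receptor for lysophospholipids, -0.33 and 0.56. The log2 differences of Pcdh7 and P2ry10 were 0.78 and 0.90 (edgeR adjusted p = 0.609 and 0.571). In the PARP1 line both barely separated. Pcdh7 was at 32.7 and 44.8 CPM for PARP1 WT, 32.4 and 19.9 CPM for PARP1CKO. P2ry10 was at 3.77 and 3.27 CPM for PARP1 WT, 2.34 and 3.25 CPM for PARP1CKO. Sdc2 (a heparan sulfate proteoglycan), Olfml3 (a secreted matrix protein), Dusp13 (a phosphatase), AI450353 and Gm11545 completed the 12, with means under 4 CPM in every group and differences of 0.79 in Dusp13, 1.09 in Olfml3, 1.11 in Gm11545 and slightly more in Sdc2 and AI450353. At these levels 1 library can set the size, as in Sdc2, where PARP1 WT replicate 2 stood at 3.16 CPM and the other 3 libraries of the line at 1.17 to 1.34 CPM.

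The genes described next were higher in PARP1CKO and lower in PARP2CKO, and were chosen by their values. Chd3, a chromatin-remodelling ATPase of the NuRD complex, was at 46.7 and 43.7 CPM for PARP1 WT, 62.8 and 69.4 CPM for PARP1CKO, 52.2 and 58.6 CPM for PARP2 WT and 46.2 and 37.7 CPM for PARP2CKO. The groups did not overlap within either line, and the difference of -0.95 (standard error 0.137, adjusted p = 0.119) had the smallest unadjusted p (7.28e-05) of this kind after Nlrp1c-ps. Wdfy1, an endosomal protein of Toll-like receptor signalling, was at 29.8 and 29.4 CPM for PARP1 WT, 56.1 and 58.7 CPM for PARP1CKO, 50.7 and 56.2 CPM for PARP2 WT and 50.4 and 29.7 CPM for PARP2CKO. Its log2 fold change was 0.96 in PARP1CKO and -0.41 in PARP2CKO, where replicate 2 stood far lower and replicate 1 level with PARP2 WT replicate 1, and the difference was -1.36 (standard error 0.265, adjusted p = 0.239). Srebf1, which encodes the transcription factor SREBP1 of fatty acid synthesis, was at 107 and 109 CPM for PARP1 WT, 124 and 127 CPM for PARP1CKO, 120.1 and 123 CPM for PARP2 WT and 115 and 117 CPM for PARP2CKO. Its replicates agreed closely, and the difference was -0.28 (standard error 0.0534, adjusted p = 0.205). Srebf1 was named after its values were seen. Ccl3, a chemokine that attracts T cells and monocytes, was at 136 and 132 CPM for PARP1 WT, 138 and 144 CPM for PARP1CKO, 105 and 146 CPM for PARP2 WT and 62.5 and 64 CPM for PARP2CKO. Nearly all of its difference of -1.06 (standard error 0.172, adjusted p = 0.122) came from the PARP2 line, since PARP1CKO lay only slightly above PARP1 WT. Ccl6, Ccl9 and Ccl4 are given because the study is about them, and Ccl9 and Ccl4 were below 0 in both deletions. The log2 fold changes in PARP1CKO and PARP2CKO were 0.14 and -1.88 for Ccl6, -0.10 and -1.01 for Ccl9 and -0.054 and -1.05 for Ccl4. PARP2 WT libraries lay far apart, at 54.1 and 104 CPM for Ccl6, 392 and 554 CPM for Ccl9 and 47.1 and 80.1 CPM for Ccl4. Both PARP2CKO libraries lay below them. The differences of -2.02, -0.91 and -0.998 did not pass the test (edgeR adjusted p = 0.176, 0.239 and 0.571).

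The next genes in this direction by size were mostly low. Asprv1, a retroviral-like protease, had log2 fold changes of 0.67 and -0.87 and a difference of -1.54 (standard error 0.32, adjusted p = 0.276), at levels of 1.45 and 1.07 CPM for PARP1 WT, 1.82 and 2.15 CPM for PARP1CKO, and 1.18 and 1.0 CPM for PARP2 WT, 0.57 and 0.621 CPM for PARP2CKO. Enpp4, an ectonucleotide phosphodiesterase, rested on PARP1CKO replicate 2, which held 7.59 CPM beside 2.91 CPM in replicate 1. The haemoglobin genes Hba-a1 and Hba-a2 had identical counts, 1.99 and 1.77 CPM for PARP1 WT, 3.11 and 3.83 CPM for PARP1CKO and 0.813 and 0.692 CPM for PARP2 WT, 0.57 and 0.642 CPM for PARP2CKO each, so they cannot be separated and count as 1 measurement. Fbln5 (an elastic fibre protein), Wtip (a LIM domain protein), A930024E05Rik and 5430405H02Rik had differences from -1.12 to -0.97 with means under 5 CPM in every group. None of the genes in this paragraph passed the test in the difference, with adjusted p-values of 0.276 to 0.609.

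Not all of the smallest p-values belonged to genes that crossed. Mmp12, the macrophage elastase, was at 381 and 373 CPM for PARP1 WT, 245 and 208 CPM for PARP1CKO, 445 and 452 CPM for PARP2 WT and 482 and 431 CPM for PARP2CKO (difference 0.76, standard error 0.109, adjusted p = 0.119). PARP1CKO stood below the other groups, and the PARP2 line was level within its spread. Mbd2, a reader of methylated DNA, was at 173 and 218 CPM for PARP1 WT, 109.6 and 103 CPM for PARP1CKO, 107 and 109.6 CPM for PARP2 WT and 108 and 112 CPM for PARP2CKO. In this gene PARP1 WT stood apart, and the other 6 libraries lay together (difference 0.89, standard error 0.129, adjusted p = 0.119). Pira1 and Pira2, activating immunoglobulin-like receptors whose genes are near-identical copies and could share reads, had differences of 0.65 and 0.66, with Pira2 at 70.2 and 72.5 CPM for PARP1 WT, 49.9 and 49 CPM for PARP1CKO, 64.5 and 62 CPM for PARP2 WT and 75.2 and 62.7 CPM for PARP2CKO. Siglec1, the sialic acid receptor CD169, was at 70.0 and 76.7 CPM for PARP1 WT, 124 and 142 CPM for PARP1CKO, 96.8 and 110.2 CPM for PARP2 WT and 113 and 123 CPM for PARP2CKO, higher in both deletions and more so in PARP1CKO (difference -0.66, standard error 0.121, adjusted p = 0.175). These genes passed the test in the PARP1 deletion, except Pira2, and none passed it in the difference. They were named after their values were seen.

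**Figure D3:**
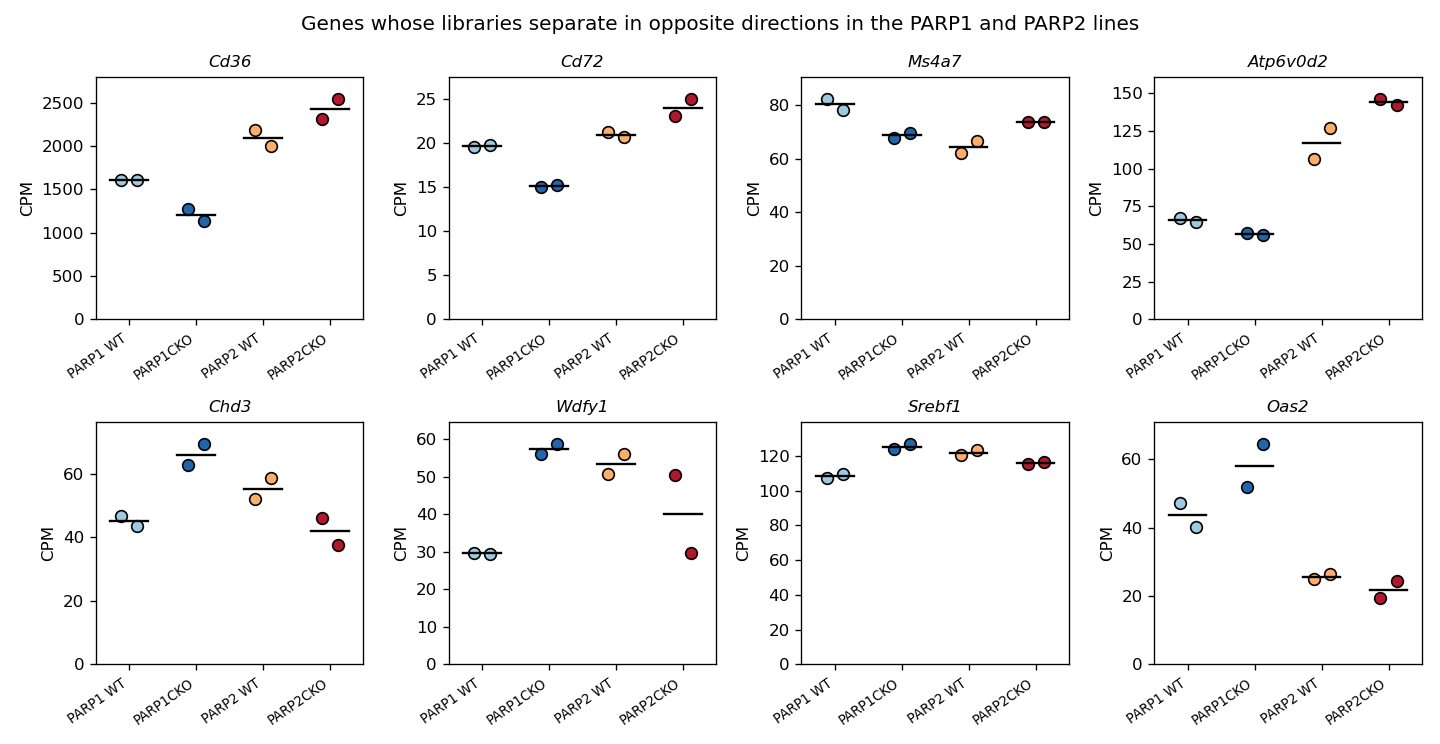
CPM (y axis, linear from 0) of 8 genes in the 4 groups (x axis); points are libraries and bars are means of 2. In the upper row (Cd36, Cd72, Ms4a7, Atp6v0d2) PARP1CKO lies below PARP1 WT and PARP2CKO above PARP2 WT, and in the lower row (Chd3, Wdfy1, Srebf1, Oas2) the order is the reverse in every panel.

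Programs were then compared as lists of genes with a shared role. Of 48 lists, 47 had at least 5 tested members. A list was said to move in opposite directions when its median log2 fold changes in the PARP1 and PARP2 deletions, each taken relative to the median of all genes, had opposite signs and were at least 0.1 in size. This held for 7 lists. In 6 of them the median was higher in PARP1CKO and lower in PARP2CKO, namely type I interferon stimulated genes, guanylate-binding and immunity-related GTPases, together with B cell, T and NK, erythroid and eosinophil markers. Stromal and endothelial markers went the other way. Leaving out each of the 8 libraries in turn, the interferon, GTPase, B cell, eosinophil and stromal lists met the rule in 5 of 8 cases, the T and NK list in 6 and the erythroid list in 2. PARP1CKO replicate 2 stood apart in many lists. Over the 47 lists its median deviation was the highest of the 8 libraries in 19 and the lowest in 9, with the GTPase, T and NK, erythroid, mature neutrophil, ATF4 and sterol lists among the 19. PARP2CKO replicate 1 was the lowest in 15. Without PARP1CKO replicate 2 the median difference was -0.016 for the GTPases, -0.10 for neutrophil genes, -0.17 for ATF4 targets and -0.091 for sterol genes, in place of -0.33, -0.22, -0.20 and -0.14. A list's median is a description of these libraries, with no test, and in bulk RNA fewer cells of a type and less RNA per cell cannot be told apart.

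**Figure D4:**
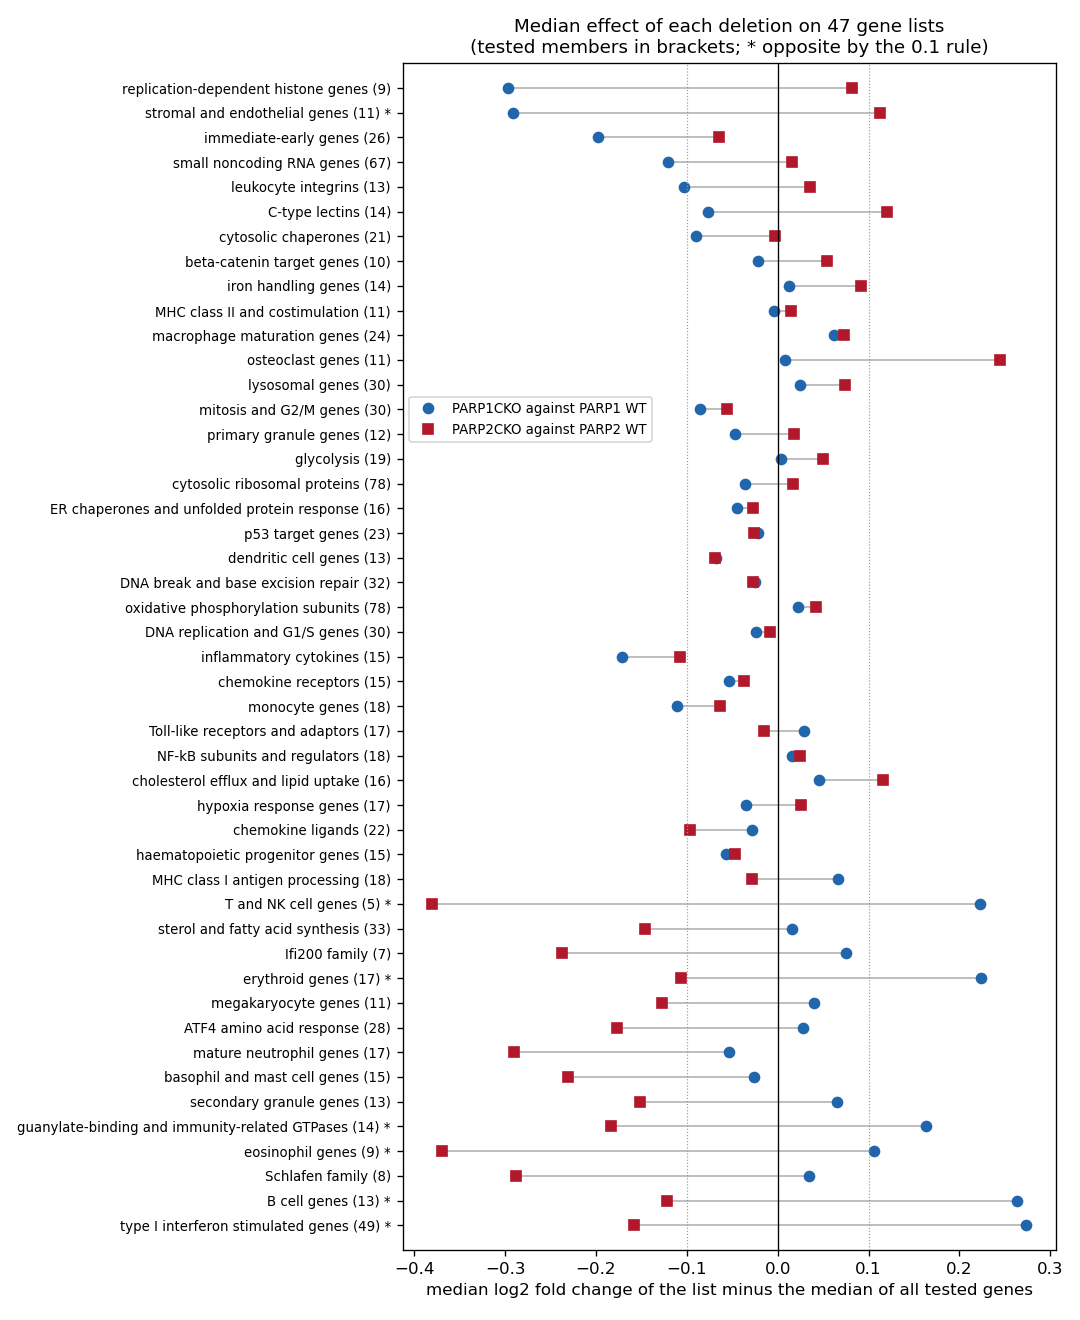
Median log2 fold change of 47 gene lists minus the median of all 13197 tested genes (x axis) for PARP1CKO against PARP1 WT (circles) and PARP2CKO against PARP2 WT (squares), with lists ordered by their median difference and the number of tested members in brackets. Dotted lines mark 0.1 in each direction and asterisks the 7 lists on opposite sides beyond them; at the lower end interferon genes sit right of 0 in the PARP1 deletion and left of 0 in the PARP2 deletion.

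Type I interferons signal through the IFNAR receptor to transcription factors that bind interferon-stimulated response elements and turn on antiviral genes. Macrophages keep this program partly active without infection. Of 49 tested interferon stimulated genes, 48 had a fitted value above 0 in PARP1CKO, against 52.1% of all genes, and 4 in PARP2CKO, against 49.3%. Of the list, 44 combined a higher value in PARP1CKO with a lower value in PARP2CKO. The median log2 fold change was 0.28 in the PARP1 deletion and -0.16 in the PARP2 deletion, with a median difference of -0.42. In the difference 9 genes had an unadjusted p under 0.05, all negative (background 4.09%), and none passed the adjusted threshold. In the single comparisons 6 of 49 were higher at an unadjusted p under 0.05 in PARP1CKO (background 6.11%), and none in either direction in PARP2CKO (background 2.36% higher and 2.46% lower).

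Oas2, which makes the oligoadenylates that activate RNase L, was at 47.3 and 40.3 CPM for PARP1 WT, 51.9 and 64.5 CPM for PARP1CKO, 24.9 and 26.4 CPM for PARP2 WT and 19.3 and 24.3 CPM for PARP2CKO. It was 1 of 2 members of the list whose libraries separated in opposite directions, 2 of 49 beside 3.32% of all genes in that direction, and all PARP1-line libraries lay above all PARP2-line libraries (difference -0.65, standard error 0.184, adjusted p = 0.562). Stat2, a subunit of the interferon transcription complex, was at 85.1 and 75.7 CPM for PARP1 WT, 87 and 107 CPM for PARP1CKO, 72.4 and 75.2 CPM for PARP2 WT and 60.5 and 68.3 CPM for PARP2CKO (difference -0.47, standard error 0.139, adjusted p = 0.568). Irf7, which amplifies interferon production, was at 21.7 and 14.7 CPM for PARP1 WT, 20.3 and 32.9 CPM for PARP1CKO, 13.9 and 14.7 CPM for PARP2 WT and 10.3 and 12.6 CPM for PARP2CKO. Within PARP1CKO its replicates differed by more than the WT and CKO means, and PARP1 WT replicate 1 lay above PARP1CKO replicate 1. Ifit3, an antiviral RNA-binding partner, had 5.25 and 2.76 CPM for PARP1 WT, 4.18 and 10.2 CPM for PARP1CKO and 2.68 and 2.88 CPM for PARP2 WT, 1.46 and 2.05 CPM for PARP2CKO. Usp18, the negative regulator of the receptor, had a difference of -1.18 (standard error 0.41, adjusted p = 0.605). Bst2, or tetherin, was almost level in the PARP2 line, with a log2 fold change of -0.020 there and 0.24 in PARP1CKO.

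The promoters of 2 of these genes are shown because they carry the response element through which the program is known to act. The motif searched was GAAANNGAAA on both strands, shown in capitals, in windows of 300 bases from 250 before to 50 after the start site in RefSeq GRCm38.p6 (Stat2, chr10:128270248-128270547, plus strand, and Ifit3, chr19:34583279-34583578, plus strand), each written on the strand of the gene.
Stat2: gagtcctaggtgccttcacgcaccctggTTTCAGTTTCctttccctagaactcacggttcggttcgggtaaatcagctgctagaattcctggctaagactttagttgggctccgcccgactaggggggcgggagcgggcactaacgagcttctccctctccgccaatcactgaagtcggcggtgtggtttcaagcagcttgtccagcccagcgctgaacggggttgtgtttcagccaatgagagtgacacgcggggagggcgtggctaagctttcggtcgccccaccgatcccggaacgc
Ifit3: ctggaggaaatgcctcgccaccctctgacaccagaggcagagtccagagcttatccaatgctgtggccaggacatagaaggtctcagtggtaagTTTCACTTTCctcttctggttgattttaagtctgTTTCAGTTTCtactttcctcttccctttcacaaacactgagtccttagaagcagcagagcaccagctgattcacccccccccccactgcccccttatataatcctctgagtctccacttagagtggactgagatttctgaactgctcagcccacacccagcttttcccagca
Of 34 list members with a window, 17 held the motif, compared with 3.49% of 27025 windows in the table, 1 per gene. Of the 6 members with a window and an unadjusted p under 0.05 in the difference, 3 held it. A match describes the letters in the window only.

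The higher interferon median of PARP1CKO rested on PARP1CKO replicate 2 and on the low PARP1 WT replicate 2. The median log2 deviation of the 49 genes from their mean over all libraries was 0.44 and -0.013 for PARP1 WT, 0.16 and 0.77 for PARP1CKO, -0.27 and -0.20 for PARP2 WT and -0.52 and -0.30 for PARP2CKO. PARP1CKO replicate 2 was the highest of the 8, PARP1CKO replicate 1 lay between the PARP1 WT libraries, and all PARP2-line libraries were below all PARP1-line libraries. The summed level of the list was 1827 and 1516 CPM for PARP1 WT, 1665 and 2177 CPM for PARP1CKO, 1273 and 1344 CPM for PARP2 WT and 1142 and 1264 CPM for PARP2CKO. Without PARP1CKO replicate 2 the median effect of the PARP1 deletion was -0.026, with 22 of 49 genes above 0, and the median difference was -0.13 with 2 of 49 genes negative at an unadjusted p under 0.05, near the 2.98% of all genes in the same fit. The list also failed the rule of opposite medians without PARP1 WT replicate 2, where the median effect of the PARP1 deletion was 0.088 and the difference -0.22, and without PARP2CKO replicate 1, where the median effect of the PARP2 deletion was -0.068 and the difference -0.30. The median effect of the PARP2 deletion ran from -0.26 to -0.068 over all leave-outs. Leaving out each library in turn, the median difference stayed negative, from -0.67 to -0.13.

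The guanylate-binding proteins and immunity-related GTPases, which attack vacuoles that hold pathogens and are induced by interferons, followed the same pattern. Of 14 tested, 13 were above 0 in PARP1CKO and 13 below 0 in PARP2CKO, with medians of 0.17 and -0.18. None reached an unadjusted p under 0.05 in the difference. Irgm2 came closest, at 17.5 and 15.1 CPM for PARP1 WT, 15.8 and 21.6 CPM for PARP1CKO, 12.9 and 14.2 CPM for PARP2 WT and 11.2 and 12.4 CPM for PARP2CKO (difference -0.40, standard error 0.202, adjusted p = 0.684). Irgm1, Gbp2 and Gbp5 had differences of -0.29, -0.34 and -0.61, and Iigp1 and Tgtp2, both at no more than 2.63 CPM in any library, of -1.35 and -0.89. Over the leave-outs the difference ran from -0.52 to -0.13 for Gbp2 and -1.03 to -0.034 for Gbp5. It ran from -2.11 to -0.44 for Iigp1 and -1.43 to -0.34 for Tgtp2. Without PARP1CKO replicate 2 the median effect of the PARP1 deletion was -0.19 and that of the PARP2 deletion -0.17, so the list no longer differed in sign.

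B cell markers separated the lines more than the deletions. Of 13 tested, 11 were above 0 in PARP1CKO and 8 below 0 in PARP2CKO, with medians of 0.27 and -0.12, and none had an unadjusted p under 0.05 in the difference. Cd79a, a signalling chain of the B cell antigen receptor, was at 9.8 and 8.2 CPM for PARP1 WT, 8.84 and 12.8 CPM for PARP1CKO, 2.75 and 2.42 CPM for PARP2 WT and 1.94 and 2.86 CPM for PARP2CKO. Every PARP1-line library lay above every PARP2-line library, and PARP1CKO replicate 2 was the highest. Pax5, Ebf1, Igll1 and Dntt were below 3.1 CPM in all libraries. The summed level of the list, most of it the adaptor Blnk that macrophages also express, was 133 and 128 CPM for PARP1 WT, 149 and 150.0 CPM for PARP1CKO, 134 and 128 CPM for PARP2 WT and 149 and 139 CPM for PARP2CKO. Over the list the median log2 deviation was 0.87 and 0.72 for PARP1 WT, 0.73 and 1.32 for PARP1CKO, -0.52 and -0.83 for PARP2 WT and -1.09 and -0.63 for PARP2CKO. The interferon list and the B cell list were thus highest in the same library, PARP1CKO replicate 2, which was also the highest in 17 other lists, and the part of any of these in another was not tested.

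The other marker lists that met the rule were small or near the floor of detection. Of the T and NK markers 5 of 14 in the file were tested, with a summed level of 1.65 and 2.1 CPM for PARP1 WT, 1.49 and 1.95 CPM for PARP1CKO, 1.99 and 1.96 CPM for PARP2 WT and 1.61 and 1.78 CPM for PARP2CKO. PARP1 WT and PARP1CKO overlapped, and PARP2CKO lay below PARP2 WT. The median difference of -0.13 changed sign without PARP1CKO replicate 2 (0.30). Cd8b1, Cd8a, Klrd1, Thy1 and Lck reached at most 1.11 CPM in any library. The eosinophil list of 9 had medians of 0.11 and -0.37. Prg2, the eosinophil major basic protein, was at 16.8 and 12.2 CPM for PARP1 WT, 13.7 and 17.6 CPM for PARP1CKO, 14.6 and 8.65 CPM for PARP2 WT and 7.49 and 8.22 CPM for PARP2CKO, and PARP2 WT replicate 1 was higher than the other 3 libraries of its line. The summed level of the eosinophil list was 26.8 and 21.8 CPM for PARP1 WT, 24.3 and 28.2 CPM for PARP1CKO, 25.8 and 16.1 CPM for PARP2 WT and 15.8 and 16.3 CPM for PARP2CKO. Prg3, its homologue, had a difference of -0.85 (standard error 0.325, adjusted p = 0.613), and the ribonucleases Ear6, Ear2 and Ear1 of -0.89, -0.65 and -0.34, while the chemokine receptor Ccr3 was at 0.34. Without PARP2 WT replicate 1 the median difference of the eosinophil list was 0.10 in place of -0.34.

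Of 17 tested erythroid genes 11 were above 0 in PARP1CKO and 11 below 0 in PARP2CKO (medians 0.23 and -0.11), and 5 had an unadjusted p under 0.05, all negative (background 4.09%). The median log2 deviation of the list was 0.0097 and 0.29 for PARP1 WT, 0.34 and 0.55 for PARP1CKO, -0.24 and -0.26 for PARP2 WT and -0.062 and -0.12 for PARP2CKO. By that measure both PARP2CKO libraries lay above both PARP2 WT libraries, so the direction of the list in the PARP2 deletion differed between the measures. Of these 5 genes, Hba-a1 and Hba-a2 had 1 set of counts between them, as did Hbb-bs and Hbb-b1, at 1.29 and 1.07 CPM for PARP1 WT, 1.29 and 1.73 CPM for PARP1CKO and 0.692 and 0.769 CPM for PARP2 WT, 0.486 and 0.393 CPM for PARP2CKO (difference -1.07, standard error 0.352, adjusted p = 0.582). The remaining gene, Blvrb, a biliverdin reductase, was at 255 and 281 CPM for PARP1 WT, 314 and 301 CPM for PARP1CKO, 304 and 313 CPM for PARP2 WT and 310.2 and 307 CPM for PARP2CKO and differed mainly through the low PARP1 WT libraries. Sptb, an erythroid spectrin that other cells also express, had a difference of -0.56. Both globin pairs entered the 17 genes and the medians as separate members. The PARP2CKO median relative to all genes was -0.107, only just past the 0.1 of the rule. It was not recomputed with each pair counted once. The summed level of the tested erythroid genes was 279.9 and 311 CPM for PARP1 WT, 343 and 338 CPM for PARP1CKO, 332 and 334 CPM for PARP2 WT and 334 and 330.0 CPM for PARP2CKO, most of it Blvrb, which is not specific to red cells.

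Stromal and endothelial markers were the 1 list that met the rule of opposite medians with the lower side in PARP1CKO. Of 11 tested, 9 were below 0 in PARP1CKO and 7 above 0 in PARP2CKO, with medians of -0.29 and 0.11, and none had an unadjusted p under 0.05 in the difference. Cxcl12, the chemokine of marrow stroma, was at 0.465 and 0.705 CPM for PARP1 WT, 0.416 and 0.575 CPM for PARP1CKO, 0.294 and 0.25 CPM for PARP2 WT and 0.52 and 0.393 CPM for PARP2CKO (difference 1.02, standard error 0.474, adjusted p = 0.66). The basement membrane collagen Col4a1 had log2 fold changes of -0.34 and 0.38, and the matrix genes Bgn, Sparc and Col1a2 had differences of 1.21, 1.06 and 1.28. Over the leave-outs these differences ran from 0.55 to 2.09, 0.41 to 1.63 and 0.71 to 2.22. Kdr, an endothelial receptor and the most abundant of the list at a mean of 15 CPM, had a difference of -0.12. The summed level was 29 and 34.4 CPM for PARP1 WT, 27.3 and 36.4 CPM for PARP1CKO, 33.8 and 28.5 CPM for PARP2 WT and 33.6 and 30.8 CPM for PARP2CKO. The median log2 deviation of the list was -0.051 and 0.29 for PARP1 WT, -0.28 and 0.22 for PARP1CKO, 0.38 and -0.44 for PARP2 WT and 0.30 and -0.12 for PARP2CKO, so that replicates of a group differed more than the groups, and leaving out each library moved the median difference from 0.14 to 0.89.

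**Figure D5:**
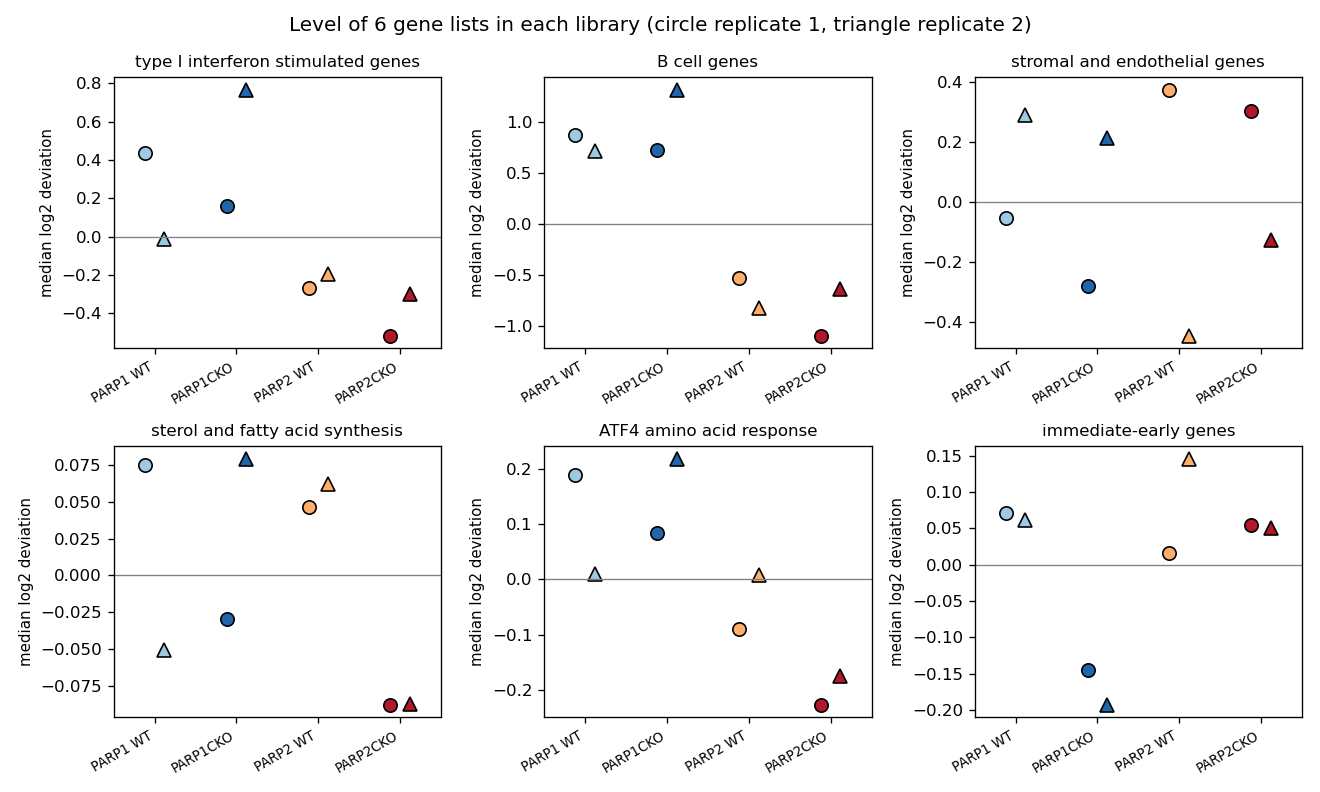
Median log2 deviation of the tested genes of 6 lists from their mean over all 8 libraries (y axis, log2 units, a separate scale in each panel) by group (x axis); circles are replicate 1 and triangles replicate 2. In the interferon and B cell panels PARP1CKO replicate 2 is the highest point and the PARP2 line lies below the PARP1 line, in the sterol and ATF4 panels both PARP2CKO points are the lowest, and in the immediate-early panel both PARP1CKO points are the lowest.

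A pair of metabolic programs had a lower median without PARP2, while the small median without PARP1 changed sign with the library left out. Cells make cholesterol and fatty acids under the control of SREBP transcription factors, which are released from the endoplasmic reticulum when sterols are scarce. Of 33 tested sterol and fatty acid synthesis genes, 32 were below 0 in PARP2CKO and 13 in PARP1CKO, with medians of -0.15 and 0.022. Over the leave-outs these medians ran from -0.17 to -0.13 in PARP2CKO and from -0.056 to 0.081 in PARP1CKO. In PARP2CKO 17 genes were lower at an unadjusted p under 0.05 (background 2.46%) and in PARP1CKO none were (background 5.15%). In the difference 14 of 33 reached it, all negative, beside 4.09% of all genes, and none passed the adjusted threshold. The median difference was -0.14, small beside the interferon list, and lay from -0.21 to -0.091 when each library was left out. Without PARP1CKO replicate 2, 6 of 33 genes reached an unadjusted p under 0.05 (background 2.98% in that fit).

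Among the fatty acid enzymes Scd1, a desaturase that makes monounsaturated fatty acids, was at 149.9 and 85.2 CPM for PARP1 WT, 107 and 145 CPM for PARP1CKO, 136 and 141 CPM for PARP2 WT and 66.5 and 90.0 CPM for PARP2CKO. The PARP2CKO libraries were below both PARP2 WT libraries, whereas the PARP1CKO libraries lay between the widely spaced PARP1 WT libraries (difference -0.93, standard error 0.346, adjusted p = 0.609). Scd2, its paralogue, followed with 1209 and 1262 CPM for PARP2 WT, 922 and 989 CPM for PARP2CKO (difference -0.47, standard error 0.174, adjusted p = 0.609). Fads2, which desaturates polyunsaturated fatty acids, had log2 fold changes of 0.027 and -0.40, and Fasn, the fatty acid synthase, 0.022 and -0.21. In the cholesterol branch Pmvk, Lss and Nsdhl had differences of -0.41, -0.25 and -0.17. These genes were chosen for the smallest unadjusted p in the list.

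Genes of lipid uptake and storage differed in both directions. The list of 16 genes of cholesterol efflux and lipid uptake had a median difference of -0.017, with 4 positive and 4 negative differences at an unadjusted p under 0.05, beside a background of 3.60% and 4.09%. The positive genes were Cd36, Pparg, Plin2 and Msr1. Pparg, the nuclear receptor that drives lipid uptake in macrophages, was at 26.2 and 31.2 CPM for PARP1 WT, 26 and 23.9 CPM for PARP1CKO, 41.4 and 37.4 CPM for PARP2 WT and 43.9 and 42.5 CPM for PARP2CKO and separated in opposite directions in the lines (difference 0.34, standard error 0.122, adjusted p = 0.609). Plin2, the coat protein of lipid droplets, was at 865 and 860.0 CPM for PARP2 WT, 959 and 936 CPM for PARP2CKO, with PARP1CKO overlapping PARP1 WT (difference 0.18, standard error 0.0661, adjusted p = 0.609). Msr1, a scavenger receptor, had log2 fold changes of -0.12 and 0.18. The negative genes were Mylip, a ubiquitin ligase, Lpin1, a phosphatidate phosphatase, Scarb1, the receptor for high-density lipoprotein, and Lpcat3, a phospholipid acyltransferase, with differences of -0.33, -0.48, -0.19 and -0.20. None of the 8 passed the adjusted threshold.

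The second metabolic program was that of ATF4, a transcription factor translated when amino acids are short or the endoplasmic reticulum is stressed, which raises amino acid synthesis, transport and tRNA charging. Of 28 tested target genes 27 were below 0 in PARP2CKO and 8 in PARP1CKO, with medians of -0.18 and 0.034. Over the leave-outs these medians ran from -0.24 to -0.12 in PARP2CKO and from -0.059 to 0.14 in PARP1CKO. The list met the rule of opposite medians only without PARP1 WT replicate 1. At an unadjusted p under 0.05, 13 were lower in PARP2CKO (background 2.46%), none was lower in PARP1CKO (background 5.15%), and 11 differed, all negatively (background 4.09%). The median difference of -0.20 ranged from -0.29 to -0.14 when each library was left out, with 6 genes at that threshold without PARP1CKO replicate 2 (background 2.98% in that fit). By library the median log2 deviation was 0.19 and 0.009 for PARP1 WT, 0.085 and 0.22 for PARP1CKO, -0.09 and 0.0087 for PARP2 WT and -0.23 and -0.18 for PARP2CKO, and both PARP2CKO libraries were the lowest of the 8. Atf5, a transcription factor related to ATF4, was at 71.3 and 69.2 CPM for PARP1 WT, 87.8 and 98.6 CPM for PARP1CKO, 70.8 and 67.8 CPM for PARP2 WT and 67.8 and 64.7 CPM for PARP2CKO, and its difference of -0.47 (standard error 0.0824, adjusted p = 0.155) arose from the higher PARP1CKO libraries. Slc7a5, an importer of large neutral amino acids, was at 81.2 and 76.6 CPM for PARP1 WT, 80.0 and 99.9 CPM for PARP1CKO, 71.8 and 82.7 CPM for PARP2 WT and 62 and 63.6 CPM for PARP2CKO (difference -0.49, standard error 0.141, adjusted p = 0.562). Phgdh, the first enzyme of serine synthesis, had 82.2 and 91.5 CPM for PARP2 WT, 60.8 and 68.8 CPM for PARP2CKO, Psph, the last, 14.2 and 16.1 CPM for PARP2 WT, 11.6 and 13.4 CPM for PARP2CKO, and Shmt2, which passes serine into mitochondrial folate metabolism, 156 and 177 CPM for PARP2 WT, 141 and 142 CPM for PARP2CKO.

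Pck2, Chac1 and Nupr1 are shown with their promoters, because each holds the composite element TGATGNAA to which ATF4 and C/EBP factors bind. Windows were as above (Pck2, chr14:55540016-55540315, plus strand, Chac1, chr2:119350992-119351291, plus strand, and Nupr1, chr7:126625421-126625720, minus strand), both strands were searched, and matches are in capitals.
Pck2: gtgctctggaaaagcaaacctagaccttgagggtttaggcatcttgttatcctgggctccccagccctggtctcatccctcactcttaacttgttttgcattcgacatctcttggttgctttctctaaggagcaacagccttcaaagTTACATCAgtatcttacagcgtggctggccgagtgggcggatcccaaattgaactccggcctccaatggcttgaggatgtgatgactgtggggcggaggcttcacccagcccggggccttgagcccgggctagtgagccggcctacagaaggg
Chac1: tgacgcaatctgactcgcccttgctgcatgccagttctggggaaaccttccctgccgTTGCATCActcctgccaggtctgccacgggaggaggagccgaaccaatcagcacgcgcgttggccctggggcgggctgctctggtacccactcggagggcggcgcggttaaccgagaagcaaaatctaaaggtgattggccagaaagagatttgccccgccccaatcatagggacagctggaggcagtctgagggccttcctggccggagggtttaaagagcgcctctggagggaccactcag
Nupr1: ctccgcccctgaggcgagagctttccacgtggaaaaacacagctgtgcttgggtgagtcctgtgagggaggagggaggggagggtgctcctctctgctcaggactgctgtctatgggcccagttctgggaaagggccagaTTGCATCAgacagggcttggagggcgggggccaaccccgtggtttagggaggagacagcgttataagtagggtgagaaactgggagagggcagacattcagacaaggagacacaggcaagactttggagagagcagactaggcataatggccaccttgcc
Of 24 members with a window 7 held the motif (29.2%) beside 4.06% of all windows. Of the 9 with an unadjusted p under 0.05 in the difference 4 held it. Pck2, the mitochondrial PEP carboxykinase, was at 39.3 and 35 CPM for PARP1 WT, 39.1 and 38.3 CPM for PARP1CKO, 34.4 and 36.4 CPM for PARP2 WT and 27.7 and 29.9 CPM for PARP2CKO (difference -0.36, standard error 0.0945, adjusted p = 0.491). Chac1, which degrades glutathione, was at 8.45 and 7.44 CPM for PARP1 WT, 9.04 and 9.45 CPM for PARP1CKO, 5.69 and 7.86 CPM for PARP2 WT and 4.59 and 5.28 CPM for PARP2CKO and was the 1 member of 28 whose libraries separated in opposite directions, beside 3.32% of all genes in that direction (difference -0.68, standard error 0.216, adjusted p = 0.582). Nupr1, a stress-induced nuclear protein, was at 14.3 and 11.7 CPM for PARP1 WT, 12.4 and 16.5 CPM for PARP1CKO, 10.4 and 11.5 CPM for PARP2 WT and 7.68 and 8.12 CPM for PARP2CKO (difference -0.63, standard error 0.203, adjusted p = 0.582). A sterol regulatory motif, TCACNCCAC, was found in 1 of 23 windows of the sterol list and 1.22% of all windows, so no sterol promoter is shown.

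Immediate-early genes, which are transcribed within minutes of a stimulus and decay quickly, had a median below 0 in both deletions, further in PARP1CKO. Of 26 tested, 22 were below 0 in PARP1CKO and 15 in PARP2CKO, with medians of -0.19 and -0.066. At an unadjusted p under 0.05, 10 were lower in PARP1CKO (background 5.15%) and 5 in PARP2CKO (background 2.46%), and 6 had a positive difference (background 3.60%), that is, a lower fold change without PARP1. Fosb, a subunit of the AP-1 transcription factor, was at 6.82 and 6.45 CPM for PARP1 WT, 0.932 and 0.619 CPM for PARP1CKO, 1.73 and 4.69 CPM for PARP2 WT and 1.39 and 0.953 CPM for PARP2CKO. Both CKO groups were below PARP1 WT, but PARP2 WT replicate 1 was almost as low as PARP2CKO (difference 1.66, standard error 0.626, adjusted p = 0.613). Klf6, a zinc finger factor, was at 402 and 384 CPM for PARP1 WT, 345 and 328 CPM for PARP1CKO, 382 and 404 CPM for PARP2 WT and 384 and 390.3 CPM for PARP2CKO, lower in PARP1CKO and unseparated in the PARP2 line (difference 0.20, standard error 0.0682, adjusted p = 0.582). Ier5 was lower in PARP1CKO and higher in PARP2CKO, with log2 fold changes of -0.16 and 0.062 (difference 0.22, standard error 0.0568, adjusted p = 0.473). Fos, Dusp1 and Rgs1 were lower in both deletions and more so in PARP1CKO, with differences of 1.12, 0.90 and 0.95. Maff, a small MAF factor, had log2 fold changes of -0.13 and 0.31. In 8 of the 26 genes the libraries separated on the same side in both lines, beside 4.3% higher and 4.09% lower of all genes. In 2 they were lower in PARP1CKO and higher in PARP2CKO, beside 3.30%. Over the leave-outs the list median ran from -0.23 to -0.16 in PARP1CKO and from -0.10 to 0.033 in PARP2CKO.

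A list of chaperones and the leukocyte integrins had lower medians without PARP1 than without PARP2, by small amounts. Of 21 chaperones 17 were below 0 in PARP1CKO, 8 of them at an unadjusted p under 0.05 (background 5.15%), and 11 in PARP2CKO, 1 of them at that threshold (background 2.46%). Ppid, a cyclophilin of the HSP90 complex, was at 48.5 and 49.8 CPM for PARP1 WT, 40.1 and 39.8 CPM for PARP1CKO, 48.6 and 50.3 CPM for PARP2 WT and 46.2 and 48.9 CPM for PARP2CKO (difference 0.24, standard error 0.0638, adjusted p = 0.492), and Hspd1, the mitochondrial HSP60, had log2 fold changes of -0.16 and -0.016. The inducible Hspa1a went the other way with a difference of -1.13 at under 1 CPM. All 13 integrins tested were below 0 in PARP1CKO and 9 were above 0 in PARP2CKO (medians -0.10 and 0.034). The integrin median changed sign with the library left out in PARP2CKO (-0.042 to 0.089) and stayed negative in PARP1CKO (-0.14 to -0.074). Itgax, the CD11c integrin of dendritic cells and macrophages, was at 18.8 and 19.3 CPM for PARP1 WT, 13.8 and 18.1 CPM for PARP1CKO, 27 and 21 CPM for PARP2 WT and 29.2 and 26.3 CPM for PARP2CKO (difference 0.47, standard error 0.198, adjusted p = 0.637). Itgb7 and Itga5 had differences of 0.43 and 0.19, and these 3 were the members at an unadjusted p under 0.05 (background 3.60% positive).

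Mature neutrophil genes had a lower median without PARP2 than without PARP1. Among related lists, the median difference was -0.28 for secondary granule genes, -0.22 for basophil and mast cell genes and 0.033 for primary granule genes. Over the leave-outs it ran from -0.42 to -0.11, -0.42 to 0.019 and -0.060 to 0.13 in these lists. Of 17 tested mature neutrophil genes 15 were below 0 in PARP2CKO and 9 in PARP1CKO, with medians of -0.29 and -0.047, and 6 had a negative difference at an unadjusted p under 0.05 (background 4.09%). Mmp9, a gelatinase of neutrophil granules, was at 46.7 and 48.6 CPM for PARP1 WT, 46.9 and 56.2 CPM for PARP1CKO, 29.2 and 32.5 CPM for PARP2 WT and 24.4 and 21.5 CPM for PARP2CKO (difference -0.54, standard error 0.134, adjusted p = 0.414). Cxcr2, the neutrophil chemokine receptor, was at 19.8 and 19.9 CPM for PARP1 WT, 19.3 and 24.6 CPM for PARP1CKO, 13.4 and 16.4 CPM for PARP2 WT and 10.7 and 10.5 CPM for PARP2CKO (difference -0.64, standard error 0.175, adjusted p = 0.531). By library the median log2 deviation of the list was 0.13 and 0.19 for PARP1 WT, 0.056 and 0.27 for PARP1CKO, -0.056 and 0.014 for PARP2 WT and -0.25 and -0.29 for PARP2CKO. In both genes PARP2CKO was the lowest group and the PARP1 line was above the PARP2 line. Hdc, which makes histamine, was at 5.53 and 0.98 CPM for PARP2 WT, 0.805 and 0.87 CPM for PARP2CKO, so that PARP2 WT replicate 1 was the library behind its difference of -2.21. Of 8 Schlafen family genes, 5 were above 0 in PARP1CKO (52.1% of all genes) and 7 below 0 in PARP2CKO. In the difference 3 were negative at an unadjusted p under 0.05 (background 4.09%). The Schlafen median difference was -0.37 and ran from -0.53 to -0.14 over the leave-outs. Slfn8 was at 27.9 and 22.1 CPM for PARP1 WT, 25.2 and 35.4 CPM for PARP1CKO, 13.3 and 19.9 CPM for PARP2 WT and 7.73 and 6.88 CPM for PARP2CKO (difference -1.46, standard error 0.304, adjusted p = 0.28) and Slfn10-ps had a difference of -0.60. The Schlafen genes lie together on chromosome 11 (chr11:83002158-83020810 for Slfn8), close to the chemokine genes Ccl6, Ccl9, Ccl3 and Ccl4 (chr11:83647844-83649355 for Ccl3).

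The share of genes at an unadjusted p under 0.05 in the difference varied along the chromosomes, and its evenness was not tested. By whole chromosome it ran from 4.78% on chromosome 12 to 11.9% on chromosome 18, with 9.91% on chromosome 1. Within 10 Mb of Parp1, 21 of 131 other tested genes (16%) had an unadjusted p under 0.05 in the difference, of which 15 were positive, beside 7.69% of all genes. Around Parp2 the share was 7.84%, around Lyz2 8.0%, around Nlrp1c-ps 9.59% and around Ccl3 10.2%. Of the 21 genes near Parp1, 16 lay between 170 and 175 Mb, a stretch that holds the SLAM receptor and Ifi200 clusters among other genes. Of 284 windows of 5 Mb with at least 15 genes of at least 1 CPM, the window of chromosome 1 from 170 to 175 Mb had the highest share of genes with both PARP2 WT libraries outside the range of the other 6, 20 of 59 genes (33.9%), compared with 5.16% over the genome. Slamf9 was at 11.5 and 10.0 CPM for PARP1 WT, 9.08 and 10.1 CPM for PARP1CKO, 6.78 and 6.48 CPM for PARP2 WT and 9.39 and 8.59 CPM for PARP2CKO, and Dusp23 at 10.5 and 11.7 CPM for PARP1 WT, 12.1 and 11.5 CPM for PARP1CKO, 7.7 and 8.53 CPM for PARP2 WT and 11.9 and 11.1 CPM for PARP2CKO. In both genes PARP2CKO lay with the PARP1 line and PARP2 WT below. Cd48, a ligand of Cd244, was at 143 and 129 CPM for PARP1 WT, 125 and 127 CPM for PARP1CKO, 111 and 112 CPM for PARP2 WT and 130.0 and 131 CPM for PARP2CKO, Cd84, a SLAM receptor, at 521 and 514 CPM for PARP1 WT, 519 and 515 CPM for PARP1CKO, 489 and 481 CPM for PARP2 WT and 563 and 584 CPM for PARP2CKO, and Ifi202b, a DNA-binding member of the Ifi200 family, at 0 and 0 CPM for PARP1 WT, 0 and 0.288 CPM for PARP1CKO, 19.9 and 19.8 CPM for PARP2 WT and 0 and 0 CPM for PARP2CKO. Slamf8, named above for opposite directions, lies in this cluster (chr1:172581758-172590568). For PARP2CKO the windows of chromosome 11 from 70 to 75 Mb, which holds the Nlrp1 genes, and from 80 to 85 Mb, which holds the Ccl and Schlafen genes, had 25 of 65 genes (38.5%) and 21 of 52 genes (40.4%) outside the range of the other libraries, beside 17.3% over the genome. These 2 windows were chosen for the genes named and not for their rank. Of the 284 windows, 6 had a higher share for PARP2CKO than the first and 2 a higher share than the second, up to 47.8%. The shares are a description. Within a line, the deletion and any other stretch of chromosome that differed between the mice cannot be told apart.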

How the data were processed

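Strand-specific libraries were made from 8 samples of total RNA from cultured cells and sequenced from single ends. Per the submitters' processing notes and the study's methods, the authors checked reads with FastQC (version 0.11.2), mapped them to mm10 with TopHat2 (2.0.12), marked duplicates with Picard (1.127) and counted them per gene with featureCounts. The deposited values are raw counts per gene symbol, with no normalization by the authors. The gene annotation and the strand setting of the counting are not given in the sources used here, so overlapping genes are uncertain. Library totals are given with the results and bound the counting error of low genes.

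All 8 libraries entered 1 edgeR (4.0.16) quasi-likelihood model with a mean for each of the 4 groups. Genes passed edgeR's default filter on low counts, TMM factors were used for scaling, and p-values were adjusted by the Benjamini-Hochberg method over the 13197 genes tested, with 0.05 as the threshold. Fold changes used a prior count of 0.125. With 2 libraries against 2, the smallest 2-sided exact permutation p for a single value is 0.333, so no such test was used. CPM with TMM factors are shown per library, and the model was tested on simulated data. Median log2 deviations used log2 CPM with a prior count of 2.

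Gene lists and the comparison itself were chosen with earlier results of these data known. Named genes were Parp1, Parp2, the genes called, the 12 largest differences in each direction among genes with a mean of at least 1 CPM, an unadjusted p under 0.05 and libraries that separated in opposite directions, up to 6 genes of the smallest p in each opposite list, Ccl3, Ccl4, Ccl6, Ccl9 and Ifi202b. In the other lists the genes named were picked, after their values were seen, mainly for the smallest unadjusted p, and some genes are not reported here. Positions are from the GENCODE M21 annotation and promoter windows from RefSeq GRCm38.p6. Alternatives covered scaling, filters, DESeq2 (1.42.0), limma-voom (3.58.1), the replicate number as a block, and leaving out each library.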

Additional observations from a re-analysis of the deposited data

Results flagged for a closer look

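Parp2 and Nlrp1c-ps are the genes for which the effect of the PARP2 deletion and that of the PARP1 deletion differed by the test of the difference itself, each with exceptions among the alternatives. Parp2 is the gene deleted in PARP2CKO, so its difference follows from the design. The log2 difference of Parp2 was -0.82 (edgeR adjusted p = 0.00634), with both PARP2CKO libraries at or under 25.7 CPM and every other library at or over 37 CPM. The fitted log2 difference of Nlrp1c-ps was -11.08 (edgeR adjusted p = 0.0107), which rests on 0 counts in both PARP2CKO libraries and is no bound on the fold change. Parp2 missed the threshold with the replicate block set within each line (adjusted p = 0.0517) and passed it in the other 17 alternatives. Nlrp1c-ps missed it with a robust spread (0.12), without PARP1 WT replicate 1 (0.0612) and without PARP1 WT replicate 2 (0.0626), and passed in the other 15.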

How the results depend on the processing

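The number of genes called in the difference depended on the test. It was 2 in the quasi-likelihood test, 1 with a robust spread, 72 in edgeR's likelihood-ratio test, 45 in DESeq2 and 61 with no filter on low counts. Deviations of same-numbered libraries correlated at -0.13 in the PARP1 line and 0.15 in the PARP2 line. This does not decide whether the replicate numbers pair the libraries, since a correlation over all genes can miss a shift shared by part of them. With the replicate number as a block, 3 genes were called when the block was shared by all groups and 1 when it was set within each line, where Parp2 lost its call. With crossed numbers, an alternative added after seeing the data, 10 were called. Leaving out 1 library gave 1 to 16 calls, where the lone sample of a group is assumed to vary like the other groups. Genes at an unadjusted p under 0.05 numbered 527 in DESeq2 in place of 1015, and 675 to 1404 with 1 library left out. Scaling by library size alone gave 671 negative and 312 positive genes in place of 540 and 475, with a median over all genes of -0.028. Genes that separated in opposite directions numbered 873, and 1289 to 1969 with 1 library left out, when a lone library separates more easily.

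The median difference with 1 library left out ran from -0.67 to -0.13 for interferon genes, -0.55 to -0.016 for GTPases, -0.79 to -0.10 for B cell genes, -0.57 to -0.057 for erythroid genes, -0.74 to 0.10 for eosinophil genes, -0.47 to 0.30 for T and NK genes, 0.14 to 0.89 for stromal genes, -0.21 to -0.091 for sterol genes, -0.29 to -0.14 for ATF4 targets, 0.084 to 0.22 for immediate-early genes, -0.46 to -0.10 for neutrophil genes and 0.11 to 0.19 for integrins. The median turned positive for eosinophil genes without PARP2 WT replicate 1 (0.10) and for T and NK genes without PARP1CKO replicate 2 (0.30), without PARP2CKO replicate 2 (0.037) and with at least 1 CPM in 2 libraries (0.75), where fewer genes are left. That filter gave -0.65 for eosinophil, -0.19 for B cell and 0.080 for stromal genes, and no filter gave -0.53 for erythroid and 0.50 for stromal genes. Without PARP1CKO replicate 2, an alternative added after seeing the data, 2 interferon genes in place of 9, 6 sterol genes in place of 14 and 6 ATF4 targets in place of 11 had a negative difference at an unadjusted p under 0.05, while such genes fell from 540 to 399 over all genes. Among the named genes the difference changed sign for Irgm1 (0.019), Lck (0.30) and Kdr (0.16) without PARP1CKO replicate 2, for Lck (0.11) and Klrd1 (-0.11) without PARP1 WT replicate 2, for Lck (0.037) without PARP2CKO replicate 2 and for Ear1 (0.24) without PARP2 WT replicate 1. With each library left out in turn, the differences ran from -0.55 to 0.019 for Irgm1, -0.47 to 0.30 for Lck, -0.36 to 0.16 for Kdr, -0.11 to 1.46 for Klrd1 and -0.72 to 0.24 for Ear1. The cause of these changes was not tested.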

Other observations

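Lists of core cell functions differed little between the deletions. Of 78 cytosolic ribosomal protein genes 52 were below 0 in PARP1CKO and 31 in PARP2CKO, with a median difference of 0.029. Of 78 oxidative phosphorylation subunits 48 were above 0 in PARP1CKO and 68 in PARP2CKO (median difference 0.014). Mitosis genes were mostly below 0 in both deletions, 27 and 25 of 30, with none at an unadjusted p under 0.05 in the difference. The 32 genes of DNA break and base excision repair, the process in which both PARPs act, had medians of -0.019 and -0.028, and 1 had an unadjusted p under 0.05 in the difference (7.69% of all genes). Lysosomal genes were above 0 for 19 of 30 in PARP1CKO (52.1% of all genes) and 28 of 30 in PARP2CKO (49.3% of all genes), and 3 had a positive difference at that level (3.60% of all genes).

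Of 14 C-type lectins, receptors for sugars on microbes and dying cells, 10 were below 0 in PARP1CKO and 10 above 0 in PARP2CKO, with medians of -0.071 and 0.12. The PARP1 side depended on the measure and the library, since the library medians gave 0.042 and leaving out 1 library gave -0.18 to 0.033, with a median difference from 0.014 to 0.29. Clec4a2, an inhibitory receptor, was at 47.2 and 47.3 CPM for PARP1 WT, 44.5 and 44.8 CPM for PARP1CKO, 53.8 and 51.3 CPM for PARP2 WT and 63.5 and 57.6 CPM for PARP2CKO and separated in opposite directions (difference 0.29, standard error 0.0749, edgeR adjusted p = 0.476). Clec7a, the receptor for beta-glucan, had a difference of 0.54. Of 18 genes of antigen processing for MHC class I, 14 were above 0 in PARP1CKO and 13 below 0 in PARP2CKO, with medians of 0.072 and -0.03. The PARP1 side of this list rested on single libraries, since its median ran from 0.00085 to 0.16 with 1 library left out. It was lowest without PARP1CKO replicate 2, and the median difference ran from -0.18 to -0.018. Replication-dependent histone genes had medians of -0.29 and 0.080 over the 9 of 68 that passed the filter on low counts, and none had an unadjusted p under 0.05 in the difference. The sign of the histone median in the PARP2 deletion changed with the library left out (-0.13 to 0.27). Its median difference ran from 0.15 to 0.55.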
